A study of Sus scrofa with 6 samples.

Results

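Oxidative phosphorylation couples the oxidation of nutrients to the making of ATP in the inner mitochondrial membrane. Complexes I and II pass electrons from NADH and succinate to ubiquinone, complex III passes them on to cytochrome c, and complex IV passes them to oxygen. Complexes I, III and IV pump protons, and the ATP synthase, also called complex V, lets them flow back to make ATP. Most subunits are encoded in the nucleus and a few in mitochondrial DNA (mtDNA), and many assembly factors help to build the complexes without staying in them. Differentiating muscle cells are known to increase their mitochondrial content as they fuse into myotubes.

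The genes described here were chosen by symbol from the deposited expression table: symbols that begin with NDUF, UQCR, ATP5 or COX followed by a digit, and CYC1, CYCS, SDHB, SDHC and SDHD. In the table, 58 genes carried such a symbol, of 28266 rows in all and 11804 rows with a symbol. The gene name table holds 92 symbols of this kind, and the identifiers of the other 34 were not analysed here. These include CYC1 and the muscle, heart or lung isoforms COX6A2, COX7A1 and COX4I2, so no comparison of muscle with liver isoforms of complex IV was possible. The 58 genes comprised 20 subunits of complex I, 3 of complex II, 6 of complex III, the electron carrier CYCS, 9 subunits of complex IV, 2 paralogues of complex IV subunits, 5 subunits of the ATP synthase, its inhibitor ATP5IF1, and 11 assembly factors. Of the complex IV subunits, COX1, COX2 and COX3 are encoded in mtDNA.

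The cells were porcine satellite cells (PSCs), the stem cells of skeletal muscle, from Yorkshire pigs. RNA-seq was done on 3 libraries at 24 h of differentiation (NC24h) and 3 libraries at a later time (NC36h), and in both groups the replicates carry the numbers 4, 5 and 6. The later time is 36 h in the series title and in the study but 48 h in the sample labels, so the interval between the groups is not settled here. In the study, the cells came from limb muscles of newborn male pigs, received a negative control (NC) siRNA and were then moved to a differentiation medium with horse serum. The labels name no siRNA, and the NC siRNA was read from the letter N in the sample titles. Both groups share this treatment, and no untransfected or undifferentiated cells were analysed here. The labels do not say whether the 3 libraries of a group came from separate cultures or animals, so the p-values measure the spread between these libraries, which may be technical.

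Values are FPKM, a measure of fragments that corrects for the length of the gene and the total of the library. The 6 libraries held between 16382890 and 21896353 fragments, as implied by the steps of the FPKM values, with 16382890 to 16908165 at 24 h and 18015798 to 21896353 at 36 h. Of the 58 genes, 52 had at least 100 fragments in every library. NC24h replicate 6 stood apart from its group. The summed FPKM of 8 muscle markers was 2841 in it against 4983 and 4393 in NC24h replicates 4 and 5. Of these markers ACTA1, DES, MYMK and MYBPH were lowest of their group in it, but MYF5, MYOD1, MYF6 and CDH15 were highest. MYOD1 was at 386 FPKM in it against 255 and 306 FPKM. The sum of the cycling markers TOP2A and CCNB1 was 65.0 in it against 24.6 and 33.5. In the NC36h libraries the muscle markers summed to 10100 to 11494 and the cycling markers to 3.81 to 5.52. Of the 8 muscle markers 6 were called higher at 36 h. MYF5 and MYOD1 had changes of -0.48 and -0.29 without a call. The extraction label names endometrium, but the epithelial markers KRT8 and PGR were listed at 0 in every library and EPCAM reached at most 0.037 FPKM, while the muscle gene DES was between 1452 and 3367 FPKM. CDH1, another epithelial marker, rose from a mean of 0.318 to 3.63 FPKM (adjusted p = 0.00155). Of 4 fibroblast markers tested, COL3A1 was higher at 36 h and COL1A2, DCN and LUM were lower. In such bulk samples, fewer cells of a type and less RNA per cell cannot be told apart.

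The level of the genes differed by complex and by genome. COX1, the catalytic subunit of complex IV, had the highest mean over the 6 libraries at 9393 FPKM, followed by COX3 at 5168 FPKM and COX2 at 2183 FPKM. The highest nuclear gene was ATP5F1A, the alpha subunit of the F1 part of the ATP synthase, at 562 FPKM, so COX1 was 16.7 times as high. The 41 nuclear structural genes, that is, the nuclear subunits together with CYCS, had a median of 123.5 FPKM. Nuclear subunits of complex IV lay between 174 FPKM for COX4I1 and 416 FPKM for COX5B, and those of the ATP synthase between 154 FPKM for ATP5ME and 562 FPKM for ATP5F1A. Subunits of complex III ran from 36.5 FPKM for UQCRC2 to 189 FPKM for UQCRC1, and those of complex II from 45.1 FPKM for SDHB to 144 FPKM for SDHD.

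**Figure D1:**
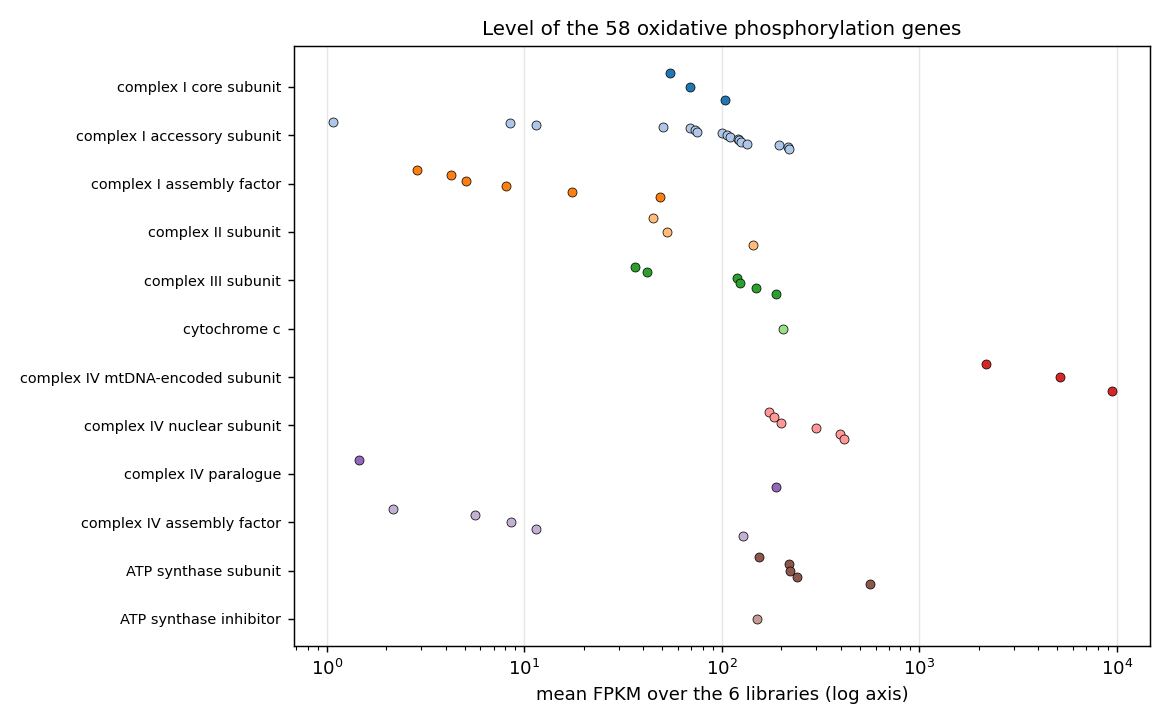
Level of the 58 genes by class. Each point is a gene, placed by its mean FPKM over the 6 libraries on a log axis, and points of a class are spread vertically only to keep them apart. The mtDNA-encoded COX1, COX2 and COX3 lie between 2183 and 9393 FPKM, above all nuclear genes, and 9 of the 11 assembly factors lie at or below 17.5 FPKM.

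Within complex I, 17 of the 20 subunits lay between 50.6 and 219.8 FPKM, a range of 4.34 times. The other 3, set apart here after their values were seen, were NDUFA6 at 1.07 FPKM, NDUFB10 at 8.45 FPKM and NDUFA2 at 11.5 FPKM. These subunits are part of the same complex, and how reads were divided between them and overlapping or similar sequences was not stated. In the RefSeq annotation of the same build, NDUFA2 overlaps TMCO6, and NDUFB10 overlaps RPL3L and RPS2, but NDUFA6 overlaps no other gene. NDUFA8, NDUFB1 and NDUFS4 also overlap another gene and were at 216, 100.2 and 109.7 FPKM. The assembly factors were lower than the subunits, with 9 of 11 between 2.18 FPKM for COX10 and 17.5 FPKM for NDUFAF1. The exceptions were NDUFAF3 at 48.4 FPKM and COX17, the copper chaperone of complex IV, at 128 FPKM.

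Between 24 h and 36 h, 22 of the 58 genes rose and 3 fell, and 33 did not pass the test (limma on log2(FPKM + 1), two-sided, Benjamini-Hochberg adjusted p under 0.05 over 14060 genes). Over all genes tested, 16.5% were called higher and 34.4% lower. The median change of the 58 genes was 0.14 on the log2 scale, whereas that of all genes was -0.16, and 53 of the 58 lay above the median of all genes. The 3 values at 36 h all lay above the 3 values at 24 h in 27 of the 58 genes and below them in 5, against 21% and 42.6% of all genes tested. Changes were small: the median of the 22 rises was 0.40 on the log2 scale, and 9 of the 25 called genes changed by at least 0.5. Of the 33 genes without a call, 27 had a 95% interval of the change that lay within -0.5 and 0.5. The 6 with wider intervals were NDUFA2, NDUFA6, NDUFA8, NDUFA4L2, COX10 and COX15.

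The counts depended in part on how the libraries were scaled. With quantile normalization 23 of the 58 genes were called higher and 2 lower, against 3039 and 3542 of 14060 genes. The median change was then 0.17 for the 58 and -0.04 for all genes. Median-ratio scaling divides a library by the typical ratio of its genes to their mean over libraries. Under it the median change of all genes moved from -0.16 on the deposited scale to -0.003. In that fit 31 of the 58 genes were called higher and 1 lower, against 23.9% and 22.2% of all genes, and the median change of the 58 was 0.31. The genes called higher in that fit and not on the deposited scale were NDUFA8, NDUFAF7, UQCRFS1, UQCRQ, NDUFA4, NDUFA4L2, ATP5F1A, ATP5MC1 and ATP5PO, and SDHD and NDUFAF4 were no longer called lower. Without NC24h replicate 6, 23 were called higher and 3 lower, against 17.6% and 34.6% of 13914 genes. That library was the lowest of its group in 44 of the 58 genes, against 34% of all genes tested. It was the lowest of all 6 libraries in 19 of the 22 genes that rose. In these 22 genes the groups did not overlap, so the lowest value had to lie at 24 h. The share among all genes called higher was not counted. Likewise NC36h replicate 6 was the lowest of its group in 44 of the 58, against 36.2% of all genes. The part of these libraries' marker levels in the changes was not tested.

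**Figure D2:**
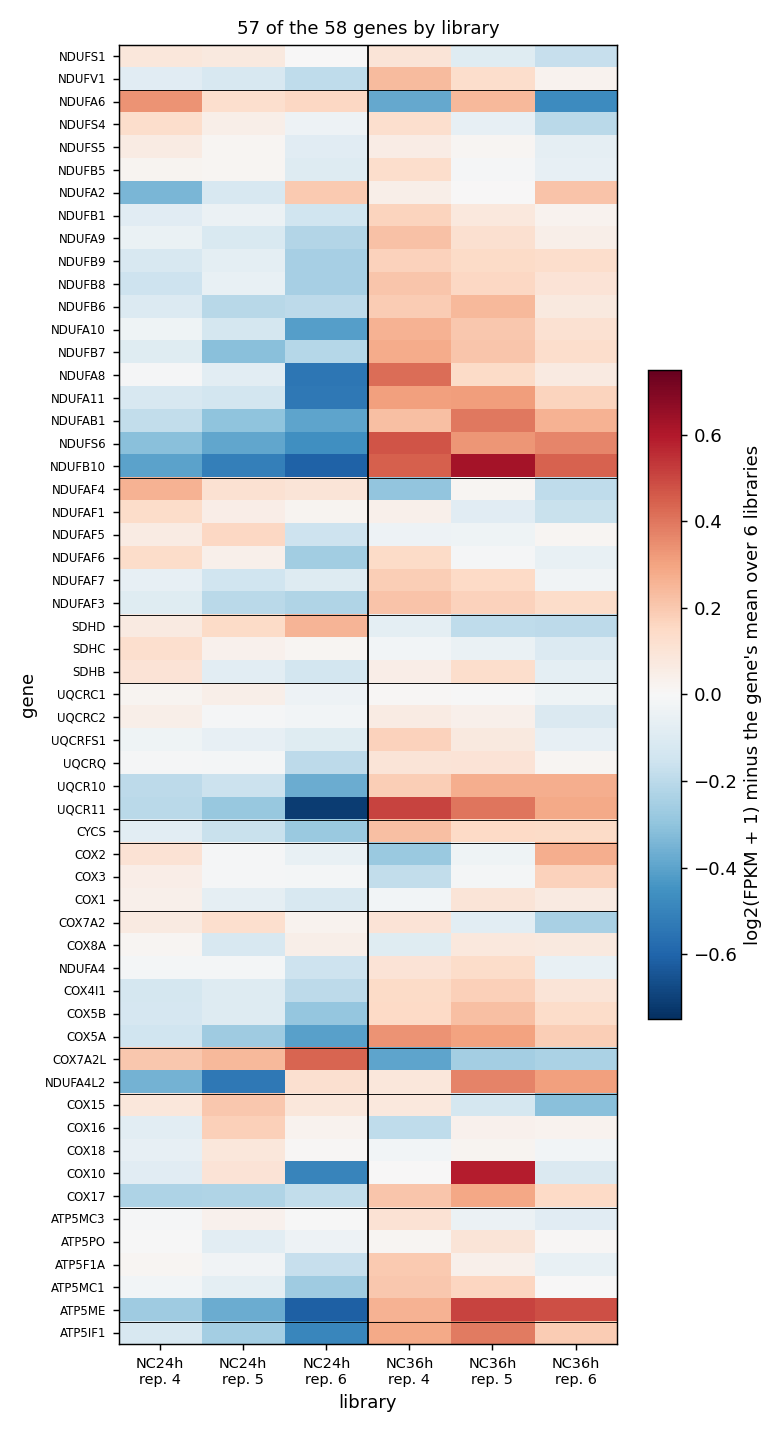
57 of the 58 genes in each library. Colour gives log2(FPKM + 1) minus the mean of the gene over the 6 libraries, from blue (below the mean) to red (above it), with NC24h replicates 4, 5 and 6 on the left and NC36h replicates 4, 5 and 6 on the right. NC24h replicate 6 holds the lowest value in 19 of the 22 genes called higher. In these 22 genes the groups do not overlap, so the lowest value has to lie in an NC24h library. The share was not counted for all genes called higher.

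Complex I accounted for 12 of the 22 rises, counting its subunits only. Of the 20 nuclear subunits, 12 rose and 0 fell (limma, with 13 higher and 0 lower at an unadjusted p under 0.05, and 11 higher and 0 lower with voom on the recovered fragments). The shares of all genes tested were 16.5% and 34.4% by the adjusted p of limma. At an unadjusted p under 0.05, 2659 of 14060 genes were higher and 5539 lower, and with voom 2339 and 4905. These counts of all genes also stand beside those of the other complexes below. The median change of the 20 subunits was 0.28. The rises were mostly among the accessory subunits, which surround the catalytic core: 11 of 17 rose, with a median of 0.31. Of the 3 core subunits 1 rose. A difference between core and accessory subunits was not tested.

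NDUFB10, an accessory subunit of the membrane arm, showed the highest change of the 58 genes. It was at 5.73, 5.23 and 4.83 FPKM in NC24h replicates 4, 5 and 6 and at 11.13, 12.67 and 11.09 FPKM in the NC36h replicates. Its mean rose from 5.26 ± 0.455 to 11.6 ± 0.900 FPKM (SD, n = 3 each), a change of 1.01 ± 0.09 (SE) on the log2(FPKM + 1) scale (limma adjusted p = 0.000829). The gene lies on chromosome 3 (Sscrofa11.1, 40003109 to 40005650), where it overlaps RPL3L and RPS2 in RefSeq. Its reads may be shared with these genes, and their part in its change was not tested. NDUFB10 was also among the lowest subunits in level, with 584 fragments over the 3 NC24h libraries and 1579 over the 3 NC36h libraries. Its gene length implied by the FPKM steps was 2228 bases. In the other NDUFB subunits this length ran from 316 bases for NDUFB1 to 981 bases for NDUFB8. The part of this length in its level was not tested.

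NDUFS6, an accessory subunit near the NADH-oxidizing end of the complex, was at 92.8, 88.2 and 83.9 FPKM at 24 h and at 161, 146 and 149 FPKM at 36 h. The groups did not overlap, and the change was 0.78 ± 0.07 (SE, limma adjusted p = 0.000752). NDUFAB1, the mitochondrial acyl carrier protein that also serves fatty acid synthesis, was at 107, 99.0 and 92.8 FPKM at 24 h and at 143, 161 and 147 FPKM at 36 h. All 3 later values lay above all earlier values, with a change of 0.59 ± 0.08 (SE, limma adjusted p = 0.00195).

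The other accessory subunits that rose were NDUFA11 (0.53), NDUFB7 (0.41), NDUFA10 (0.39), NDUFB6 (0.34), NDUFB8 (0.31), NDUFB9 (0.30), NDUFA9 (0.26) and NDUFB1 (0.18), all as changes on the log2(FPKM + 1) scale. By symbol, 6 of the 7 NDUFB subunits, which belong to the membrane arm, rose (5 with quantile normalization, with voom or without NC24h replicate 6). The share of all genes called higher was 16.5% in the main fit. The remaining NDUFB subunit was NDUFB5, at 49.9 ± 2.25 FPKM and 51.4 ± 3.63 FPKM (SD, n = 3 each), with a change of 0.04 and a 95% interval from -0.13 to 0.21. NDUFB1 passed narrowly (limma adjusted p = 0.0493, and from 0.00811 to 0.133 over the alternatives), and it lost the call whichever library was left out. The calls of NDUFA9 and NDUFA10 were each lost when a single library was left out, NDUFA9 without NC24h replicate 5 (limma adjusted p = 0.0704) and both without NC36h replicate 4 or 5 (adjusted p from 0.0696 to 0.0780).

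NDUFB9, the highest subunit of complex I, was at 201, 207 and 184 FPKM at 24 h and at 246, 242 and 239 FPKM at 36 h. NDUFA6, the lowest, was at 1.56, 1.21 and 1.25 FPKM at 24 h and at 0.554, 1.39 and 0.457 FPKM at 36 h, from 10 to 37 fragments in a library. Its groups overlapped, and its change of -0.41 had a 95% interval from -0.91 to 0.09 (limma adjusted p = 0.144). Without NC36h replicate 5 it was called lower (-0.63, adjusted p = 0.0316). NDUFA8 was at 210, 201 and 145 FPKM at 24 h and at 284, 234 and 222 FPKM at 36 h. Its groups did not overlap, and NC24h replicate 6 was far below the rest. The change of 0.42 missed the threshold (limma adjusted p = 0.0662) but passed it without NC24h replicate 4 (0.52, adjusted p = 0.0460). Without NC24h replicate 6 the change was 0.25 (adjusted p = 0.0947), and without NC36h replicate 4 it was 0.32 (adjusted p = 0.185). NDUFA2 had a change of 0.18 (limma adjusted p = 0.333), which was 0.32 without NC24h replicate 6, its highest library at 24 h (adjusted p = 0.0411).

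Among the core subunits, NDUFV1, which binds NADH, was at 64.4, 62.8 and 59.7 FPKM at 24 h and at 80.6, 75.0 and 69.5 FPKM at 36 h. The change was 0.26 ± 0.07 (SE, limma adjusted p = 0.0225), and the call was lost without NC24h replicate 5, NC36h replicate 4 or NC36h replicate 5 (adjusted p from 0.0644 to 0.0750). NDUFS1, which carries iron-sulphur clusters, was at 57.8, 57.3 and 54.6 FPKM and then at 58.3, 51.1 and 48.1 FPKM. Its groups overlapped, with a change of -0.11 and a 95% interval from -0.30 to 0.08.

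**Figure D3:**
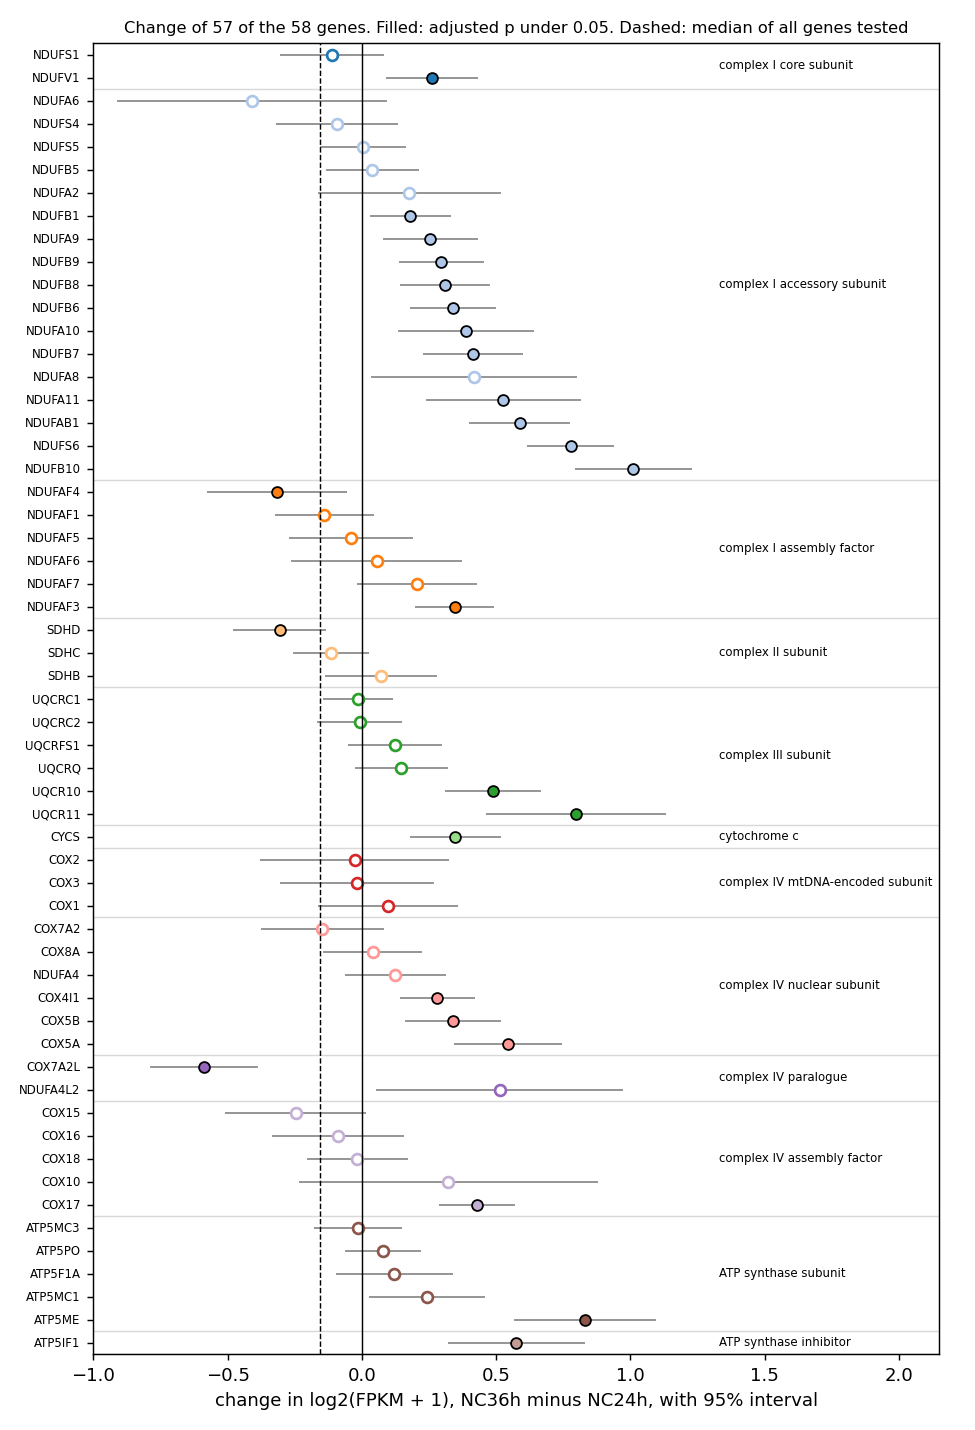
Change of 57 of the 58 genes between NC24h and NC36h, grouped by class. Points give the change in log2(FPKM + 1), grey lines its 95% interval from limma, filled points an adjusted p under 0.05, and the dashed line the median of all genes tested at -0.16. Of the complex I accessory subunits 11 of 17 are filled to the right of 0, and COX7A2L at -0.59 is the lowest filled point.

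In complex II, which also serves the citric acid cycle, 0 of 3 subunits rose (limma, and 0 also at an unadjusted p under 0.05 and with voom) and 1 fell. Of all genes tested, 16.5% were called higher and 34.4% lower. The subunit that fell was SDHD, a membrane anchor of the complex. SDHD was at 150, 158 and 170 FPKM at 24 h and at 136, 125 and 124 FPKM at 36 h, with all 3 later values below the earlier ones. Its change was -0.31 ± 0.07 (SE, limma adjusted p = 0.0130). With median-ratio scaling the change was -0.13 and the call was lost (adjusted p = 0.136), as it was without NC36h replicate 5 (-0.29, adjusted p = 0.0571). The gene lies on chromosome 9 (Sscrofa11.1, 39790654 to 39803602).

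The other membrane anchor, SDHC, was at 57.9, 54.0 and 53.5 FPKM at 24 h and at 52.0, 51.1 and 49.2 FPKM at 36 h. The groups did not overlap, but the change of -0.12 did not pass the test (95% interval -0.26 to 0.03, limma adjusted p = 0.145). SDHB, the iron-sulphur subunit, was at 48.4, 42.6 and 40.8 FPKM and then at 46.5, 49.3 and 42.8 FPKM, and the groups overlapped (change 0.07, 95% interval -0.14 to 0.28). The catalytic subunit SDHA lies outside the symbols chosen and had a change of 0.12 (limma adjusted p = 0.279).

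In complex III, 2 of 6 subunits rose and 0 fell (limma, with the same counts at an unadjusted p under 0.05 and with voom). The shares of all genes tested were 16.5% and 34.4%. Both subunits that rose are small and lie around the catalytic core. UQCR11 was at 103, 97.1 and 71.7 FPKM at 24 h and at 169, 156 and 144 FPKM at 36 h, and UQCR10 was at 103, 105 and 91.0 FPKM and then at 134, 143 and 143 FPKM. Neither overlapped between the groups. The changes were 0.80 ± 0.14 for UQCR11 (SE, limma adjusted p = 0.00452) and 0.49 ± 0.07 for UQCR10 (SE, limma adjusted p = 0.00279).

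The large core proteins of complex III did not pass the test. UQCRC1, the highest of the complex, was at 191, 194 and 184 FPKM at 24 h and at 190, 189 and 185 FPKM at 36 h, a change of -0.01 with a 95% interval from -0.15 to 0.12. UQCRC2, the lowest, was at 37.6, 36.2 and 36.0 FPKM and then at 38.1, 37.4 and 33.8 FPKM, a change of -0.01 with an interval from -0.17 to 0.15. UQCRFS1, the Rieske iron-sulphur protein, had a change of 0.12 (limma adjusted p = 0.202) and UQCRQ, another small subunit, of 0.15 (limma adjusted p = 0.131). CYCS, the cytochrome c that carries electrons from complex III to complex IV, was at 191, 180 and 166 FPKM at 24 h and at 237, 224 and 224 FPKM at 36 h. It rose by 0.35 ± 0.07 (SE, limma adjusted p = 0.00753) and the groups did not overlap.

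In complex IV, the nuclear and the mtDNA-encoded subunits were described apart. Of the 6 nuclear subunits 3 rose and 0 fell (limma, with the same counts at an unadjusted p under 0.05 and with voom). The shares of all genes tested were 16.5% and 34.4%. COX5A was at 162, 149 and 136 FPKM at 24 h and at 227, 222 and 204 FPKM at 36 h, a change of 0.55 ± 0.08 (SE, limma adjusted p = 0.00295). COX5B was at 378, 387 and 338 FPKM and then at 457, 482 and 455 FPKM, a change of 0.34 ± 0.07 (SE, limma adjusted p = 0.00967). COX4I1, the ubiquitous isoform of subunit 4, was at 157, 162 and 151 FPKM and then at 191, 196 and 185 FPKM, a change of 0.28 ± 0.06 (SE, limma adjusted p = 0.00802). In all of these the 3 later values lay above the 3 earlier ones.

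COX8A, NDUFA4 and COX7A2 did not pass the test. COX8A was at 200, 182 and 204 FPKM at 24 h and at 186, 209 and 208 FPKM at 36 h. NDUFA4, named for complex I but now counted as a subunit of complex IV, was at 390, 390 and 355 FPKM and then at 425, 435 and 380 FPKM. COX7A2, the isoform of subunit 7a found in most tissues, was at 315, 328 and 306 FPKM and then at 322, 285 and 253 FPKM. All 3 genes overlapped between the groups, and their changes were 0.04, 0.13 and -0.15.

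The mtDNA-encoded subunits showed no call in either direction (0 of 3 by limma, by an unadjusted p under 0.05 and by voom). Of all genes tested, 16.5% were called higher and 34.4% lower by limma, and 6904 of 14060 gave no call. COX1 was at 9639, 8957 and 8637 FPKM at 24 h and at 9259, 10041 and 9824 FPKM at 36 h, a change of 0.10 with a 95% interval from -0.16 to 0.36. COX2, which takes up the electrons from cytochrome c, was at 2339, 2151 and 2082 FPKM and then at 1787, 2121 and 2617 FPKM. COX3 was at 5345, 5115 and 5103 FPKM and then at 4534, 5100 and 5812 FPKM. In COX2 and COX3 the NC36h libraries spread on both sides of the NC24h libraries, with NC36h replicate 4 the lowest and replicate 6 the highest of the 6.

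Together COX1, COX2 and COX3 made up 2.97%, 2.79% and 2.70% of the summed FPKM of all genes in NC24h replicates 4, 5 and 6 and 2.65%, 2.93% and 3.08% in the NC36h replicates. The other 55 genes, all nuclear, made up 1.11%, 1.09% and 1.01% and then 1.26%, 1.24% and 1.16%. The share of the nuclear genes was higher in each NC36h library than in any NC24h library, whereas the share of the mtDNA-encoded genes overlapped. The other mRNAs of mtDNA lie outside the symbols chosen. ND1 to ND6 with ND4L, CYTB and ATP6 also gave no call (0 of 9 by limma and by voom, 0 higher and 1 lower at an unadjusted p under 0.05). Among all genes tested, limma called 16.5% higher and 34.4% lower. The changes of these mRNAs lay between -0.40 for CYTB and 0.15 for ND2. CYTB was at 877, 818 and 850 FPKM in the NC24h replicates and at 530, 615 and 806 FPKM in the NC36h replicates. It had no overlap, and its limma adjusted p was 0.0604, from 0.00963 to 0.271 over the alternatives. ATP6 overlapped, with a change of -0.32 (limma adjusted p = 0.101, from 0.0192 to 0.464 over the alternatives). In the ND genes the lowest limma adjusted p over the alternatives was 0.0585, for ND5. ATP8 was listed at 0 in every library.

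COX7A2L, a relative of COX7A2 known for joining complexes III and IV into supercomplexes, showed the lowest change among the 58 genes. It was at 211, 217 and 248 FPKM at 24 h and at 139, 153 and 155 FPKM at 36 h, so that all 3 later values lay below the earlier ones. Its mean fell from 225 ± 20.0 to 149 ± 8.83 FPKM (SD, n = 3 each), a change of -0.59 ± 0.08 (SE, limma adjusted p = 0.00239). With median-ratio scaling its change was -0.41, and it was the gene still called lower (adjusted p = 0.00656). The share of COX7A2L in the FPKM sum of COX7A2L and COX7A2, a pair chosen after the values were seen, was 40.1%, 39.9% and 44.8% at 24 h and 30.2%, 35.0% and 38.1% at 36 h.

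NDUFA4L2, the paralogue of NDUFA4 known as a target of hypoxia signalling, was scarce. It was at 0.878, 0.654 and 1.60 FPKM at 24 h and at 1.55, 2.11 and 1.97 FPKM at 36 h, from 13 to 56 fragments in a library. NC24h replicate 6 overlapped with the later group, and the change of 0.51 did not pass the test (95% interval 0.05 to 0.97, limma adjusted p = 0.0630). Without that library it was called higher (0.70, adjusted p = 0.00767). NDUFA4L2 made up 0.224%, 0.167% and 0.449% of the FPKM sum of the NDUFA4 pair at 24 h and 0.363%, 0.483% and 0.515% at 36 h.

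**Figure D4:**
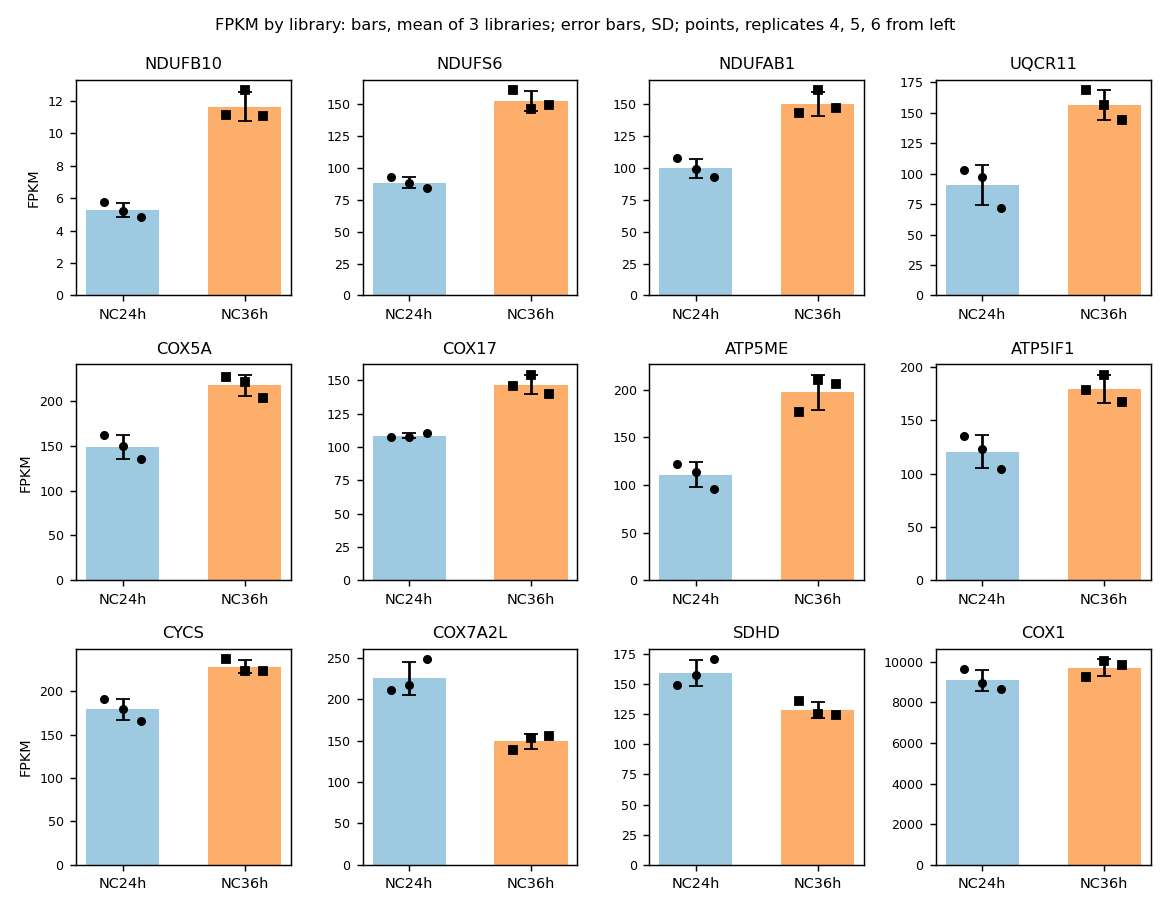
FPKM of 12 of the 58 genes by library. Bars give the mean of 3 libraries from 0, error bars the SD, and points the libraries, with replicates 4, 5 and 6 from left to right in each group. In the 9 genes that rose all NC36h points lie above the NC24h points, in COX7A2L and SDHD they lie below, and in COX1 the groups overlap.

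In the ATP synthase, 1 of 5 subunits rose and 0 fell (limma, with 2 higher and 0 lower at an unadjusted p under 0.05, and 1 higher and 0 lower with voom). The shares over all genes tested were 16.5% higher and 34.4% lower. ATP5ME, subunit e of the membrane part, was at 122, 114 and 96.1 FPKM at 24 h and at 176, 210 and 206 FPKM at 36 h. The groups did not overlap and the change was 0.83 ± 0.11 (SE, limma adjusted p = 0.00195). ATP5F1A, the highest of the complex, was at 567, 550 and 497 FPKM and then at 643, 576 and 539 FPKM, and the groups overlapped (change 0.12, 95% interval -0.10 to 0.34). ATP5PO, a subunit of the peripheral stalk, had a change of 0.08 (95% interval -0.06 to 0.22).

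ATP5MC1 and ATP5MC3 encode the same mature c subunit, which forms the rotating ring, with different import sequences. ATP5MC1 was at 215, 208 and 181 FPKM at 24 h and at 251, 244 and 219 FPKM at 36 h. The groups did not overlap, and the change of 0.24 did not pass the test (95% interval 0.03 to 0.46, limma adjusted p = 0.0619), although it did without NC36h replicate 6 (0.30, adjusted p = 0.0491). Without NC36h replicate 4 the change was 0.20 (adjusted p = 0.164), and without NC24h replicate 6 it was 0.17 (adjusted p = 0.102). ATP5MC3 was at 220, 227 and 222 FPKM and then at 239, 215 and 210 FPKM, with a change of -0.01. The share of ATP5MC1 in the sum of both was 49.4%, 47.8% and 45.0% at 24 h and 51.2%, 53.2% and 51.1% at 36 h, so that each later library lay above each earlier one. The third gene of this set, ATP5MC2, was not analysed here.

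ATP5IF1, the inhibitor that stops the ATP synthase from running in reverse, rose. It was at 135, 123 and 104 FPKM at 24 h and at 178, 193 and 167 FPKM at 36 h. The groups did not overlap, and the change was 0.58 ± 0.11 (SE, limma adjusted p = 0.00544).

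Among the 11 assembly factors 2 rose and 1 fell, against 16.5% and 34.4% of all genes tested. Their median change was -0.02, against -0.16 for all genes. COX17 was at 107, 108 and 111 FPKM at 24 h and at 146, 154 and 140 FPKM at 36 h, a change of 0.43 ± 0.06 (SE, limma adjusted p = 0.00221). NDUFAF3, which takes part in the early assembly of complex I, was at 45.0, 41.6 and 41.0 FPKM and then at 55.8, 54.2 and 52.9 FPKM, a change of 0.35 ± 0.06 (SE, limma adjusted p = 0.00458). NDUFAF4, a partner of NDUFAF3 in that step, was at 6.23, 5.54 and 5.45 FPKM and then at 3.91, 5.10 and 4.28 FPKM, a change of -0.32 ± 0.11 (SE, limma adjusted p = 0.0483). The groups did not overlap in any of these. The call of NDUFAF4 rested on 74 to 107 fragments in a library, and its adjusted p ran from 0.0408 to 0.477 over the alternatives. It was lost without NC24h replicate 4 or 5 and without NC36h replicate 4 or 6 (adjusted p from 0.0945 to 0.139).

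COX17 and NDUFAF3 were also the assembly factors with the highest levels. The other 9 had 14 to 602 fragments in a library and standard errors of the change from 0.08 to 0.23, and COX10, COX15, COX16, COX18, NDUFAF1, NDUFAF5, NDUFAF6 and NDUFAF7 gave no call. COX10, which makes the haem precursor of complex IV, was at 1.91, 2.32 and 1.196 FPKM at 24 h and at 2.10, 3.66 and 1.87 FPKM at 36 h, with overlapping groups. NDUFAF6, the lowest assembly factor of complex I, was at 3.23, 2.94 and 2.21 FPKM and then at 3.24, 2.82 and 2.70 FPKM. COX15, which acts after COX10 in haem a synthesis, had a change of -0.25 without overlap of the groups and did not pass the test (limma adjusted p = 0.103), although it did without NC36h replicate 4 (-0.35, adjusted p = 0.0354).

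Genes of the pathway outside the symbols chosen gave a mixed picture. Of 55 such genes listed, 28 were in the table and 27 were tested, of which 6 were called higher and 3 lower, against 16.5% and 34.4% of all genes, with a median change of -0.002. With median-ratio scaling 8 were called higher, the median was 0.17, and the 3 lower calls were lost (limma adjusted p from 0.0852 to 0.196). All 9 were assembly or regulatory factors. HIGD2A, a factor of supercomplex assembly, rose by 0.29, TTC19, a factor of complex III, by 0.38, and COA4, a factor of complex IV, by 0.32. DMAC1, ECSIT and SDHAF2 rose by 0.57, 0.22 and 0.24. LRPPRC, which stabilises mtDNA-encoded mRNAs, had a change of -0.30, and the complex I factors TMEM126B and NUBPL had changes of -0.32 and -0.62.

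Of the 19 nuclear structural genes that rose, 12 had an implied length under 1000 bases, as did 23 of all 41 such genes. Over the 58 genes, the Spearman correlation of the change with the gene length implied by the FPKM steps was -0.26, and over all 14060 genes it was -0.07. These are descriptions across genes that share the same 6 libraries. With a division at 1000 bases, chosen after the values were seen, 12 of 23 shorter nuclear structural genes rose, with a median change of 0.30, against 18.6% of all genes of that length. Of 18 longer ones 7 rose and 1 fell, with a median of 0.10, against 15.8% of all genes of that length called higher. The corresponding medians of all genes tested were -0.12 and -0.17. The part of transcript length in the changes was not tested.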

How the data were processed

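The authors sequenced paired-end libraries and deposited 1 FPKM value per gene and library, with no pooled columns. The study's methods name HISAT2, StringTie and HTSeq, whereas the submitters' processing notes name TopHat2, Cufflinks and HTSeq with Sscrofa11.1, and strandedness is not stated. Whole fragments were recovered from the deposited FPKM values for all of 19543 genes above 0 in at least 3 libraries (tolerance 0.02 fragments). FPKM values are not counts, so limma 3.58.1 (R 4.3.3; lmFit, then eBayes with trend; two-sided) was run on log2(FPKM + 1). The 14060 genes whose FPKM averaged 1 or more entered the fit, and calls were made at a Benjamini-Hochberg adjusted p under 0.05. A change on this scale understates that of low genes. Alternatives were pseudocounts of 0.1 and 0.01, an FPKM minimum of 5 or none, quantile or median-ratio normalization, eBayes with no trend, a replicate block, limma voom on recovered fragments, an absolute change of at least 0.5, and leaving out each library. The genes and lists were chosen with earlier results of these data known. Values in every library are given for isoforms and their counterparts, for the 3 largest called changes in either direction and the highest and lowest gene of each class, and for CYCS, SDHB, SDHC and SDHD. RefSeq coordinates were matched by symbol for 39 of the 58 genes, of which 8 overlap another gene, so their reads may be shared. 0 columns were left unused. 1 gene of the 58 enters the counts, medians and ranges but is not reported here by itself.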

Additional observations from a re-analysis of the deposited data

How the results depend on the processing

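Of the 25 called genes, 19 kept their call and direction in every alternative other than the minimum on the size of the change, which 9 of the 25 reach. NDUFB1, NDUFAF4, NDUFA9, NDUFA10, NDUFV1 and SDHD lost the call in at least 1 of those alternatives. Median-ratio scaling gave 1 gene called lower and a median change of the 58 genes of 0.31. With a minimum absolute change of 0.5 added to the threshold, 4087 of the 14060 genes tested passed. Of the 58 genes 9 passed, 8 higher and 1 lower, which is a smaller share than that of all genes. Of the other pathway genes 2 passed. The directions among all genes were not counted at this size. Leaving out each library gave 18 to 23 genes higher and 2 to 3 lower. In either direction it gave 4881 to 7268 of all genes and 5 to 8 other pathway genes. Of these fits, the directions among all genes are given only for the one without NC24h replicate 6.

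The sign of the change turned in genes without a call in either fit, and the cause was not tested. With median-ratio scaling these were NDUFS1 (0.065), NDUFS4 (0.085), NDUFAF1 (0.029), NDUFAF5 (0.12), SDHC (0.059), UQCRC1 (0.16), UQCRC2 (0.16), COX2 (0.15), COX3 (0.16), COX7A2 (0.031), COX16 (0.071), COX18 (0.13) and ATP5MC3 (0.16). With quantile normalization they were NDUFS5 (-0.054), NDUFAF5 (0.14), UQCRC2 (0.046), COX1 (-0.050), COX8A (-0.010), COX16 (0.087) and COX18 (0.17). Over the fits without 1 library, the change ran from -0.040 to 0.044 in UQCRC2, -0.17 to 0.11 in COX2, -0.11 to 0.070 in COX3, -0.13 to 0.027 in NDUFAF5, -0.037 to 0.0022 in UQCRC1, -0.0090 to 0.10 in COX8A, -0.053 to 0.020 in COX18, -0.037 to 0.038 in NDUFS5, -0.061 to 0.14 in NDUFAF6, -0.015 to 0.081 in NDUFB5 and -0.071 to 0.023 in ATP5MC3.

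Libraries with the same replicate number deviated from their group means with correlations of 0.15, -0.02 and 0.18 over all genes, so the numbers were not taken as pairs. With the replicate block, 23 of the 58 genes were higher and 2 lower. In either direction 7034 of all genes were called, and their directions are not given here. NDUFA8 and ATP5MC1 gained a call under the block (adjusted p = 0.0168 and 0.0237), and NDUFB1 and NDUFAF4 lost theirs (adjusted p = 0.0578 and 0.0814). Depth limits NDUFA2, NDUFA6, NDUFAF4, NDUFA4L2, COX10 and COX18, the 6 genes with under 100 fragments in a library.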
